A study of Mus musculus with 16 samples.

Results

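The mouse genome encodes a large set of subunits from which the receptors for glutamate and for γ-aminobutyric acid (GABA) are built, and 47 such genes were chosen here by symbol among the 55487 genes of the cortex data. The choice took the AMPA (Gria), NMDA (Grin), kainate (Grik), delta (Grid) and metabotropic (Grm) glutamate receptor genes together with the subunits of the GABA-A receptor (Gabr) and both subunits of the GABA-B receptor (Gabbr). Bulk RNA was sequenced from the cortex of 16 wild-type C57Bl6 males, 2 months old. Each mouse received intraperitoneal lipopolysaccharide (LPS, a component of the bacterial cell wall that sets off inflammation) at 2 mg/kg or the vehicle PBS, at zeitgeber time (ZT) 1, shortly after lights on, or at ZT13, shortly after lights off, on 2 days in a row, and its tissue was taken on the third day. The groups were ZT1 PBS and ZT13 PBS with 3 mice each, and ZT1 LPS and ZT13 LPS with 5 mice each. The study asked whether the time of day of an LPS injection sets the size of the inflammatory response in the brain. The comparisons below ask how the receptor genes differed between LPS and PBS at each time, and whether that difference depended on the time. All values are CPM, the reads counted on a gene per 1000000 reads counted on all genes of that mouse.

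Glutamate is the main excitatory transmitter of the cortex. AMPA receptors carry most of the fast current, NMDA receptors admit calcium when glutamate and depolarization coincide, kainate receptors tune release and excitability, and metabotropic receptors act through G proteins. GABA is the main inhibitory transmitter. GABA-A receptors are pentameric chloride channels whose α, β and γ subunits form the common synaptic type and whose δ subunit belongs to the extrasynaptic type, and the GABA-B receptor is a G protein-coupled pair of subunits. The mix of subunits sets the kinetics, location and drug sensitivity of each receptor.

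Samples took their group from the title, since for 12 of the 16 the separate treatment entry names the other treatment. Gfap, an astrocyte gene that rises in inflamed brain, read 111 to 123 CPM in the 6 mice titled PBS and 572 to 1134 CPM in the 10 mice titled LPS. Rbfox3, the gene of the neuronal nuclear protein NeuN, read 217 to 262 CPM over all mice. From the step between low values, each mouse had 20251840 to 29112758 reads counted on genes, and 3 reads were worth 0.103 to 0.148 CPM. Each library correlated with the others of its group at a mean r of 0.988 to 0.993. Genes were tested when they reached 1 CPM in at least 3 of the 16 mice, which kept 18859 genes, and log2(CPM + 0.5) was compared with limma. A gene was called at a Benjamini-Hochberg adjusted p under 0.05 over these 18859 genes. Differences are on that log2 scale, which understates the change of low genes.

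Of the 47 receptor genes 40 passed the level filter. The other 7 were Gabra6, Gabre, Gabrp, Gabrr1, Gabrr3, Grin3b and Grm6. Gabrp, which encodes the π subunit of the GABA-A receptor, read 0 in every mouse but 1, and Grm6, the metabotropic receptor of retinal bipolar cells, did not exceed 0.129 CPM in any mouse. Gabra6, the α subunit typical of cerebellar granule cells, read at most 0.198 CPM. Gabre came closest to the filter with 0.035 to 1.04 CPM, and Grin3b read 0.258 to 0.862 CPM. Exons of Grin3b share 32.1% of their bases with Tmem259 on the other strand, and with the strand of counting not stated the reads of the pair cannot be told apart.

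Levels of different genes can be compared only per length, so CPM was divided by the length of the merged exons in kb. Merged exons hold every annotated exon, used in cortex or not, and span 15548 bases for Gria2 and 6043 for Gria1. The order of genes therefore depends on the annotated length as well as on the reads. On this scale the GABA-B subunits were the highest in PBS-treated mice at ZT1. Gabbr1 stood at 81.6 ± 0.794 CPM per kb (SD, n = 3) and Gabbr2 at 78.5 ± 1.04 CPM per kb (SD, n = 3) at ZT1. Grin1, the obligatory NMDA subunit, followed at 73.2 ± 2.62, Grik5, a kainate subunit, at 65.3 ± 4.38, Grin2b at 63.2 ± 1.47 and Gria1 at 60.0 ± 2.49 CPM per kb (SD, n = 3). Grik5 and Grin2b, neighbours in this order, had overlapping values, and so did Gabbr2 and Grin1 at ZT13, with 77.2 ± 2.35 and 76.8 ± 2.81 CPM per kb (SD, n = 3). Below them came Grm3 at 37.1 ± 2.72, Gria2 at 34.1 ± 0.624 and Grin2a at 33.1 ± 0.626 CPM per kb (SD, n = 3), which lay close to each other. Among the 40 genes the lowest were Gabrg1, Gabrq and Gabrr2, the last at 0.253 ± 0.0992 CPM per kb (SD, n = 3). Of the GABA-A subunits Gabrb2 stood at 24.3 ± 0.798, Gabra3 at 21.3 ± 0.280 and Gabrd at 15.8 ± 1.52 CPM per kb (SD, n = 3). The plot of length-scaled levels gives each PBS-treated mouse at both times.

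**Figure D1:**
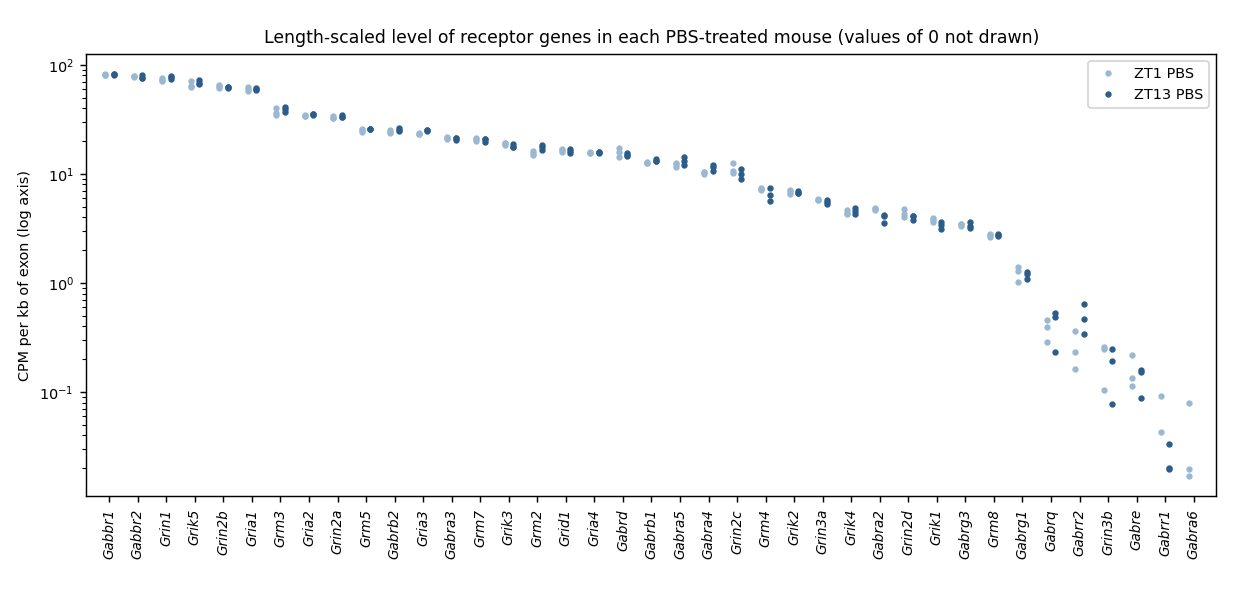
Length-scaled level (CPM per kb of exon, log axis) of receptor genes with a mean of at least 0.01 in PBS-treated mice, in descending order. Each point is 1 mouse, light for ZT1 (n = 3) and dark for ZT13 (n = 3), and the genes span from Gabbr1 near 81.6 CPM per kb to Gabra6, with Gabrr2 at 0.253 CPM per kb at ZT1.

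After LPS 30 of the 40 receptor genes at ZT1 and 33 at ZT13 had a difference below 0, of which 15 and 14 changed sign when set against neuronal markers. At ZT1 12 of the 40 genes were called, against 16.2% of all genes, 10 of them lower and 2 higher. Over all genes tested 5.15% were called lower and 11.1% higher at ZT1. At ZT13 20 of the 40 were called, against 28.6% of all genes, 18 of them lower and 2 higher, where 9.4% of all genes were called lower and 19.2% higher. The median difference of the 40 genes was -0.10 at ZT1 and -0.14 at ZT13, against 0.04 and 0.05 over all genes tested. Of the 40 genes 13 had all LPS-treated mice below all PBS-treated mice at ZT1 and 18 at ZT13, where 8.41% and 10.3% of all genes did. With all LPS-treated mice above all PBS-treated mice there were 4 genes at ZT1 and 2 at ZT13, against 15.9% and 20.9% of all genes. Gabrr2, among the genes higher at ZT1 both by call and by non-overlap, passed the level filter mainly through LPS-treated mice. At ZT1 the 47 genes summed to 8085 ± 56.5 CPM with PBS (SD, n = 3) and 7672 ± 177 CPM with LPS (SD, n = 5). The ZT13 sums were 8181 ± 33.7 CPM with PBS (SD, n = 3) and 7548 ± 190.3 CPM with LPS (SD, n = 5), and the sums did not overlap between treatments at either time. Genes of high CPM such as Grin2b weigh most in these sums. The sum of the AMPA genes alone was higher with LPS at ZT1, with 1198 to 1234 CPM after PBS and 1297 to 1361 CPM after LPS. At ZT13 the AMPA sums overlapped, with 1250 to 1265 CPM and 1261 to 1359 CPM.

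These counts depended on what the values were scaled to. When all genes were set against the mean log2 level of 12 neuronal markers in the same mouse, the median of all genes tested moved to 0.18 at ZT1 and 0.21 at ZT13. The split of receptor calls then became 8 higher and 3 lower at ZT1, where 32.0% of all genes were called higher and 1.71% lower. At ZT13 it became 8 higher and 5 lower, against 46.0% and 2.86% of all genes, and the median of the 40 genes was 0.04 and 0.02. Part of this shift rested on 1 marker, Tubb3, which fell further than the others. With Tubb3 left out of the markers, an alternative chosen after seeing the data, the split was 5 higher and 7 lower at ZT1, against 22.8% and 2.16% of all genes. At ZT13 it was then 5 higher and 11 lower, against 36.9% and 4.05%, and no called receptor gene changed sign at either time. After removal of any dependence on GC content and gene length within each library it became 1 higher and 17 lower at ZT1, where 1383 of the 18859 genes were called higher and 2257 lower, and 1 higher and 28 lower at ZT13, where 2222 were called higher and 4983 lower. With median-of-ratios factors it was 2 higher and 13 lower at ZT1, against 8.84% and 7.51%, and 1 higher and 26 lower at ZT13, against 15.2% and 14.6%. The calls that kept their direction and passed the threshold relative to neuronal markers were Gria1, Gabrr2, Gabbr2, Grik3 and Grm4 at ZT1. At ZT13 they included Gria1, Grin1, Gria4, Gabrd, Gabbr2 and Grm3. The call of Gabrr2 is not independent of the level filter, which it passed mainly through LPS-treated mice. With Tubb3 left out 9 of the 12 calls at ZT1 and 13 of the 20 at ZT13 were kept. In bulk tissue fewer cells of a type and less RNA per cell cannot be told apart.

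Called at both times, with the same sign, were 9 genes. Gria1 was higher, and Gria4, Grin2b, Grin2c, Grin3a, Grik3, Grm4, Grm5 and Gabbr2 were lower, of which Grm5 at ZT1 turned to 0.01 relative to neuronal markers and was -0.03 with Tubb3 left out of them. Called at ZT1 alone were Gabra2, Grin2d and Gabrr2, and at ZT13 alone 11 genes, among them Gabra4, Gabrb1, Gabrb2, Gabrd, Grin1, Grid1, Grik5, Grm3 and Grm7. The remaining 17 of the 40 were called at neither time. A call at 1 time does not show that the times differ, and the test of that difference is given further on. The plot of differences by class shows both times side by side.

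**Figure D2:**
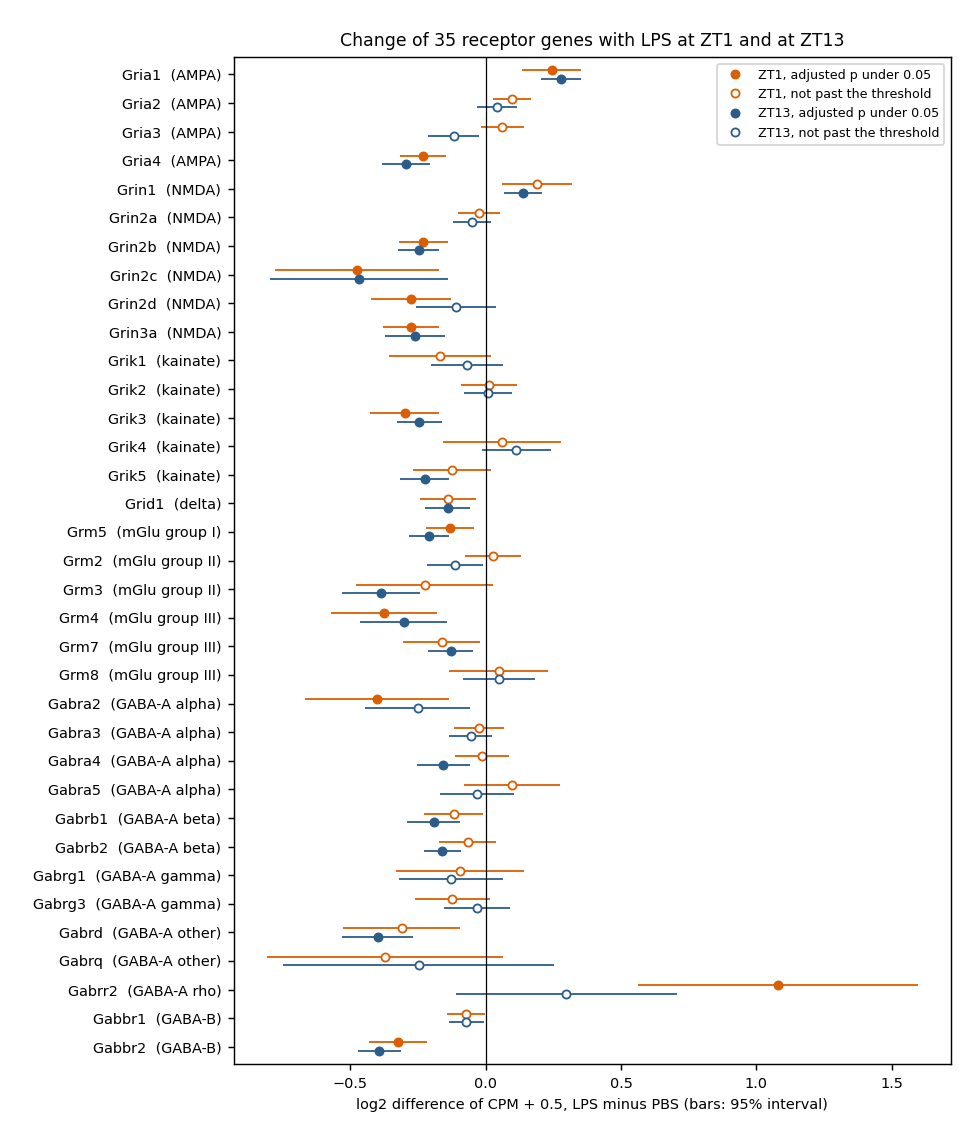
Difference between LPS and PBS for 35 tested receptor genes (log2 of CPM + 0.5, LPS minus PBS) with its 95% interval, grouped by receptor class. Filled points passed an adjusted p under 0.05 (12 of those plotted at ZT1 in orange, 18 at ZT13 in blue). Most points lie left of 0, whereas Gria1 lies right of 0 at both times. Grm5 at ZT1 and Grm7 and Grid1 at ZT13, filled and left of 0, turn right of 0 when set against neuronal markers, and not when Tubb3 is left out of these.

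Among the 9 genes called at both times, RefSeq promoter windows of GRCm38.p6 were at hand for Gria4, Grin2c, Grik3 and Gabbr2, and the other 5 had no entry. The 250 bases before the start of 3 of them are shown so that genes with the same direction of change can be set beside each other by sequence, and that of Gabbr2 is left out because part of it is transcribed in the GENCODE annotation. Capitals mark the GC box, GGGCGG or its reverse complement. The windows are chr9:4796235-4796484 on the minus strand for Gria4, chr4:125490446-125490695 on the plus strand for Grik3 and chr11:115267244-115267493 on the minus strand for Grin2c, each written 5′ to 3′ along its gene.
Gria4: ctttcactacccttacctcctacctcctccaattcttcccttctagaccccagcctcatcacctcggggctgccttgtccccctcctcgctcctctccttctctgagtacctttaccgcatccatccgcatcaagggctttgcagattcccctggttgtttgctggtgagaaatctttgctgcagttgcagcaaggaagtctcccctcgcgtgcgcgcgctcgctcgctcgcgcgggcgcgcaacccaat
Grik3: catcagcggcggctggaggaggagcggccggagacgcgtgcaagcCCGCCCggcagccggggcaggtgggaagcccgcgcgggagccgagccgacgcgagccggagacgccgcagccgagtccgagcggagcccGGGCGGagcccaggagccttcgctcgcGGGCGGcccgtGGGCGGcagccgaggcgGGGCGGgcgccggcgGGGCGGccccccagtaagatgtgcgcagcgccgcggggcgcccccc
Grin2c: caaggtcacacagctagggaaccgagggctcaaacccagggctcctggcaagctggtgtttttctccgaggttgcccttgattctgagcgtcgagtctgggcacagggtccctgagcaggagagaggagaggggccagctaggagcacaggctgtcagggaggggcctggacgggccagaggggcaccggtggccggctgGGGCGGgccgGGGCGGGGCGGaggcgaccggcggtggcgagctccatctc
Gria4 held 0 GC boxes, Grik3 6 and Grin2c 3, and the Gabbr2 window held 2. GC made up 58.8%, 82.0% and 68.8% of the bases of Gria4, Grik3 and Grin2c. Of the 32 receptor genes with a window 17 held a GC box, against 32.7% of the 32807 RefSeq windows of the same length. The TATA box, TATAAA on either strand, was found in 3 of the 32 and in 12.4% of all windows, the cyclic AMP response element TGACGTCA in 0 of the 32 and 1.55% of all, and the NF-kB motif, on either strand, in 4 of the 32 and 7.25% of all. The NF-kB motif was in the window of Grik3 and not in those of Gria4 and Grin2c. A match of letters is a description and shows no binding.

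AMPA receptors are tetramers of the Gria subunits. Of the 4 genes 1 was called higher and 1 lower at each time. Gria1, the subunit whose phosphorylation and insertion accompany synaptic potentiation (ENSMUSG00000020524, chr11:57011387-57330244, plus strand), read 349, 379 and 361 CPM in the ZT1 PBS mice and 431, 474, 414, 411 and 421 CPM in the ZT1 LPS mice. At ZT13 it read 351, 372 and 361 CPM with PBS and 455, 418, 433, 444 and 441 CPM with LPS. Every LPS-treated mouse lay above every PBS-treated mouse of its time, and the PBS-treated mice read about the same at both times. The difference was 0.24 ± 0.05 (SE) at ZT1 (limma, adjusted p = 0.00653) and 0.28 ± 0.03 (SE) at ZT13 (limma, adjusted p = 3.27e-05). Set against neuronal markers it was 0.38 and 0.43. The ZT1 call of Gria1 was lost with GC content and gene length accounted for (limma, adjusted p = 0.11) and when all genes above 0 were tested (limma, adjusted p = 0.0568).

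Gria4, a subunit with fast kinetics that is prominent in interneurons (chr9:4417896-4796234, minus strand), went the other way. It read 97.7, 99.2 and 98.1 CPM with PBS and 82.1, 80.8, 85.7, 86.0 and 83.5 CPM with LPS at ZT1. At ZT13 the values were 101, 97.4 and 99.5 CPM with PBS and 84.8, 81.6, 75.9, 79.7 and 82.4 CPM with LPS. The PBS groups were tight, and no LPS-treated mouse reached them. The difference was -0.23 ± 0.04 (SE) at ZT1 (limma, adjusted p = 0.00208) and -0.29 ± 0.04 (SE) at ZT13 (limma, adjusted p = 0.000101). Against neuronal markers Gria4 stood at -0.10 at ZT1 (limma, adjusted p = 0.103) and at -0.14 at ZT13 (limma, adjusted p = 0.0233).

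Gria2, the subunit that makes AMPA receptors impermeable to calcium, was not called. Its values were 525, 525 and 542 CPM with PBS and 554, 569, 576, 556 and 583 CPM with LPS at ZT1, and 554, 547 and 540.0 CPM and 583, 543, 539.6, 577 and 576 CPM at ZT13. At ZT1 the groups did not overlap although the difference of 0.10 ± 0.03 (SE) missed the threshold (limma, adjusted p = 0.0638), and at ZT13 they overlapped, with 0.04 ± 0.03 (SE) (limma, adjusted p = 0.39). Gria3 differed by 0.06 at ZT1 and by -0.12 at ZT13, with adjusted p of 0.281 and 0.0546 by limma.

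NMDA receptors pair the obligatory Grin1 subunit with Grin2 subunits, and of the 6 genes tested 4 were called lower at ZT1 and 3 at ZT13. Grin1 read 739, 692 and 698 CPM with PBS and 789.9, 921, 813, 794 and 739 CPM with LPS at ZT1. The ZT13 mice had 715, 753 and 767 CPM with PBS and 822, 839.8, 831, 795 and 808 CPM with LPS. All LPS-treated mice lay above the PBS-treated mice of their time, at ZT1 by the narrowest of margins, where the lowest LPS-treated mouse and the highest PBS-treated mouse both rounded to 739 CPM. The difference was 0.19 ± 0.06 (SE) at ZT1 (limma, adjusted p = 0.0512) and 0.14 ± 0.03 (SE) at ZT13 (limma, adjusted p = 0.00588). The ZT13 call was lost with median-of-ratios factors (limma, adjusted p = 0.08), and also with GC content and gene length accounted for, without the variance trend and in a single fit of all mice. Grin1 shares 13.5% of its exon bases with Grin1os on the other strand, which averaged 21.6 CPM.

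Grin2b encodes the NMDA subunit with slow decay that predominates early in development (chr6:135713233-136173511, minus strand). Its values at ZT1 were 1575, 1606 and 1533 CPM with PBS and 1263, 1338, 1306, 1369 and 1423 CPM with LPS. At ZT13 they were 1571, 1522 and 1556 CPM with PBS and 1369.5, 1298, 1237, 1279.7 and 1344 CPM with LPS. The groups stood well apart at both times. The difference was -0.23 ± 0.04 (SE) at ZT1 (limma, adjusted p = 0.00297) and -0.25 ± 0.04 (SE) at ZT13 (limma, adjusted p = 0.000125). Relative to neuronal markers neither call was kept, with -0.09 (limma, adjusted p = 0.111) and -0.09 (limma, adjusted p = 0.0703). Both were kept with Tubb3 left out of the markers, with -0.13 and -0.14 (limma, adjusted p = 0.0395 and 0.0102). Grin2a, its faster partner in mature synapses, read 588 to 607 CPM with PBS and 552 to 599.8 CPM with LPS at ZT1, and 597 to 619 CPM and 568 to 610.0 CPM at ZT13. These ranges overlapped, and Grin2a differed by -0.03 ± 0.04 (SE) and -0.05 ± 0.03 (SE), neither past the threshold.

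Of the remaining NMDA subunits Grin3a, which lowers calcium permeability, read 70.6, 71.7 and 70.4 CPM with PBS and 58.2, 54.1, 59.0, 61.0 and 60.3 CPM with LPS at ZT1. With injection at ZT13 the values were 67.3, 65.0 and 71.1 CPM after PBS and 61.3, 54.4, 53.2, 56.0 and 57.5 CPM after LPS. Here too no LPS-treated mouse reached a PBS-treated mouse of its time, and the differences were -0.28 ± 0.05 (SE) (limma, adjusted p = 0.00264) and -0.26 ± 0.05 (SE) (limma, adjusted p = 0.00155). They were -0.14 and -0.11 relative to neuronal markers, where both calls were lost (limma, adjusted p = 0.0531 and 0.124), and -0.18 and -0.15 with Tubb3 left out, where both were kept (limma, adjusted p = 0.0291 and 0.037). Grin2c varied far more between mice. It read 63.4, 53.6 and 50.8 CPM with PBS and 31.8, 33.1, 43.3, 44.8 and 49.6 CPM with LPS at ZT1, and 50.03, 45.2 and 56.4 CPM and 34.8, 31.9, 31.5, 32.1 and 55.8 CPM at ZT13. At ZT13 the fifth LPS-treated mouse stood among the PBS-treated mice while the other 4 lay below them. The difference was -0.47 ± 0.14 (SE) (limma, adjusted p = 0.0376) and -0.47 ± 0.15 (SE) (limma, adjusted p = 0.0345), and with single mice left out the call held in 2 of 8 fits at each time. Neither call of Grin2c nor that of Grin2d, given next, was kept relative to neuronal markers, with -0.34 and -0.31 for Grin2c (limma, adjusted p = 0.0518 and 0.119) and -0.14 for Grin2d at ZT1 (limma, adjusted p = 0.171). Grin2d, a subunit of interneurons, was called at ZT1 with -0.28 ± 0.07 (SE) (limma, adjusted p = 0.0173), from 27.0 to 32.0 CPM with PBS to 22.1 to 24.6 CPM with LPS, and not at ZT13 with -0.11 ± 0.07 (SE). The ZT1 call of Grin2d was lost without ZT1 PBS replicate 1, where the adjusted p by limma was 0.0971, and 9.66% of its exon bases overlap Gm45441 on the other strand.

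**Figure D3:**
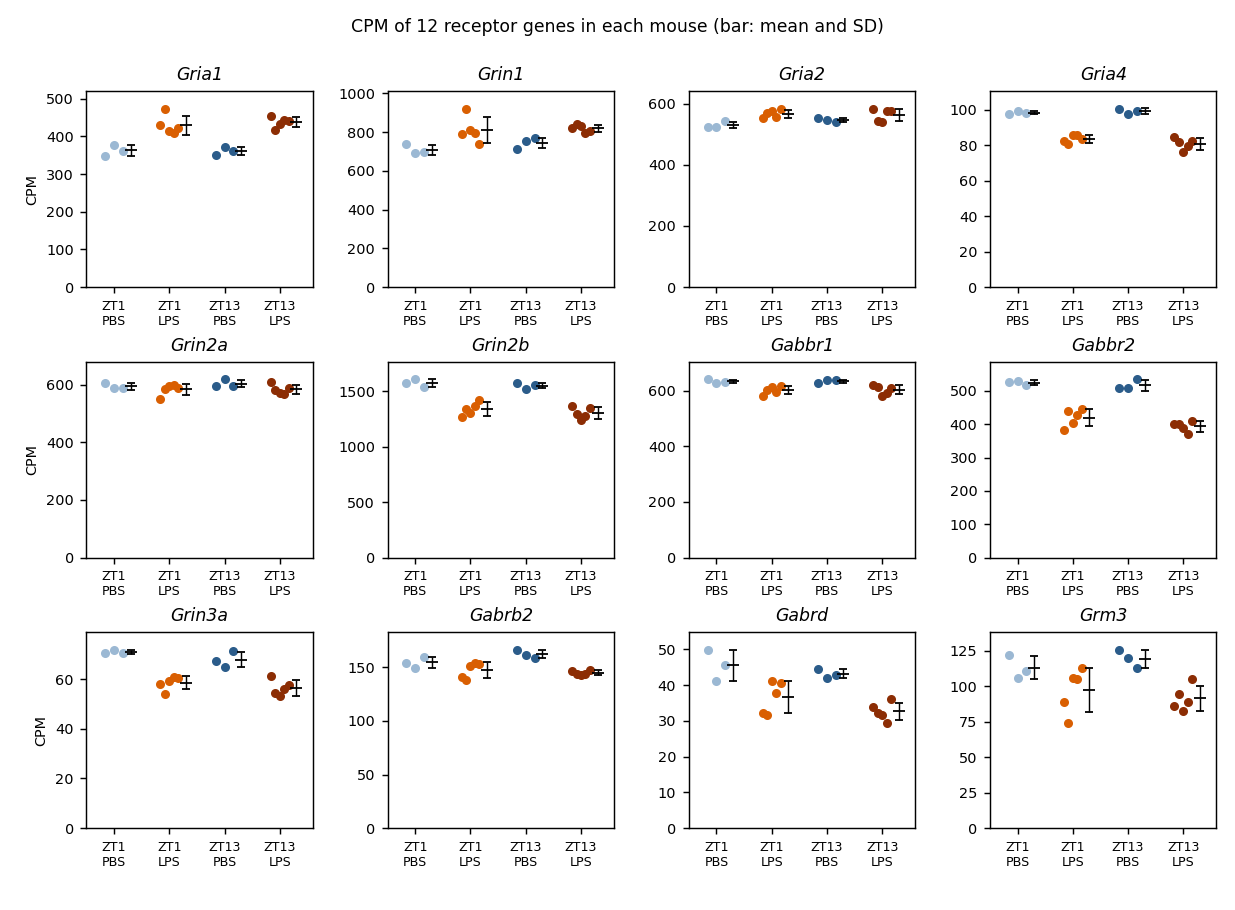
CPM of 12 receptor genes in each mouse, 3 PBS-treated and 5 LPS-treated at each time, with the mean and SD of each group as a bar. The axes start at 0. Gria1 and Grin1 lie higher with LPS, Gria4, Grin2b and Gabbr2 lie lower at both times, and Gria2, Grin2a and Gabbr1 differ little.

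Kainate receptors need at least 1 of Grik1, Grik2 and Grik3 to form a channel, and Grik4 and Grik5 join them. Of these genes 1 was called at ZT1 and 2 at ZT13, and they were lower. Grik3 (chr4:125490700-125714173, plus strand) read 165, 171 and 171 CPM with PBS and 128, 126, 137, 145 and 151 CPM with LPS at ZT1. At ZT13 its values were 158, 159 and 169 CPM with PBS and 136, 133, 131, 141 and 142 CPM with LPS. The groups were separate at both times, with -0.30 ± 0.06 (SE) (limma, adjusted p = 0.00522) and -0.25 ± 0.04 (SE) (limma, adjusted p = 0.000298). Relative to neuronal markers the ZT13 call was lost at -0.09 (limma, adjusted p = 0.113), and it was kept at -0.13 with Tubb3 left out (limma, adjusted p = 0.0221). Grik5 was called at ZT13 with -0.23 ± 0.04 (SE) (limma, adjusted p = 0.000983), from 343 to 372 CPM with PBS to 284 to 316 CPM with LPS, whereas its groups overlapped at ZT1. The call of Grik5 was likewise lost relative to neuronal markers, at -0.07 (limma, adjusted p = 0.187), and kept with Tubb3 left out, at -0.11 (limma, adjusted p = 0.0431). Grik2, the most studied kainate subunit of principal neurons, read 86.9, 91.3 and 93.9 CPM with PBS and 91.6, 84.8, 93.2, 92.4 and 94.8 CPM with LPS at ZT1, and 92.7, 89.3 and 88.0 CPM and 95.6, 87.9, 86.8, 90.5 and 91.7 CPM at ZT13. Its groups lay on top of each other, and the 95% interval of the difference was -0.09 to 0.11 at ZT1 and -0.08 to 0.10 at ZT13. Of the delta receptors, which bind synaptic organizers, Grid1 was called at ZT13, with a sign that turned to 0.01 relative to neuronal markers and stayed at -0.03 with Tubb3 left out. Its difference was -0.14 ± 0.04 (SE) (limma, adjusted p = 0.0152), from 92.4 to 101 CPM with PBS to 84.1 to 88.4 CPM with LPS. The call was lost without ZT13 PBS replicate 3 (limma, adjusted p = 0.0896).

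Metabotropic receptors of group I couple to Gq and release calcium from stores. Of these Grm5 was called lower at both times, although at ZT1 the sign turned relative to neuronal markers, with Tubb3 among them. Grm5 read 248, 256 and 267 CPM with PBS and 222, 235, 235, 237 and 244 CPM with LPS at ZT1. At ZT13 it read 266, 264 and 262 CPM with PBS and 235, 219.9, 219, 233 and 233 CPM with LPS. No LPS-treated mouse reached the PBS range, but at ZT1 the gap was small. The difference was -0.13 ± 0.04 (SE) (limma, adjusted p = 0.0453) and -0.21 ± 0.03 (SE) (limma, adjusted p = 0.000351), and with single mice left out the ZT1 call held in 2 of 8 fits. At ZT13 it was -0.06 relative to neuronal markers (limma, adjusted p = 0.266) and -0.10 with Tubb3 left out (limma, adjusted p = 0.0463).

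Group II receptors, Grm2 and Grm3, lower cyclic AMP, and Grm3 is made by astrocytes as well as neurons. Grm3 (chr5:9485541-9725170, minus strand) read 122, 106 and 111 CPM with PBS and 89.3, 74.3, 106, 105 and 113 CPM with LPS at ZT1. The ZT13 mice had 126, 119.8 and 113 CPM with PBS and 86.4, 94.3, 82.4, 89.0 and 105 CPM with LPS. At ZT1 3 LPS-treated mice lay within or beside the PBS values and 2 far below, whereas at ZT13 all 5 lay below. The call at ZT13 had a difference of -0.39 ± 0.07 (SE) (limma, adjusted p = 0.000613) and it was -0.23 relative to neuronal markers (limma, adjusted p = 0.0207). At ZT1 the difference of -0.23 ± 0.12 (SE) was not called (limma, adjusted p = 0.218). Of the astrocyte marker list 7 of 10 genes were called higher at each time and 1 lower at ZT13. At each time 3 of the 10 lay below 0. The summed level of the list was 4670 to 4826 CPM with PBS and 5334 to 5961 CPM with LPS at ZT1. At ZT13 it was 4773 to 5077 CPM and 5831 to 6408 CPM. Gfap, which is in the list, read 111 to 123 CPM with PBS and 572 to 1134 CPM with LPS over both times. Which cells the Grm3 difference came from was not tested. Grm2 was not called.

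Group III receptors sit mostly on axon terminals and restrain release. Grm4 read 44.1, 43.9 and 42.8 CPM with PBS and 30.7, 28.3, 34.1, 37.0 and 38.3 CPM with LPS at ZT1. With injection at ZT13 the values were 37.9, 34.0 and 44.3 CPM after PBS and 30.8, 29.4, 30.0, 32.2 and 33.3 CPM after LPS. At both times the LPS-treated mice were all below the PBS-treated mice, and the differences were -0.38 ± 0.09 (SE) (limma, adjusted p = 0.0153) and -0.30 ± 0.07 (SE) (limma, adjusted p = 0.00737), the latter -0.15 and not called relative to neuronal markers (limma, adjusted p = 0.142). The ZT1 call of Grm4 was lost when any 1 of the 3 PBS-treated mice was left out, at an adjusted p of up to 0.0669 by limma. Grm7, the most widespread member of this group, read 122, 126 and 119 CPM with PBS and 101, 98.6, 115, 114 and 120.0 CPM with LPS at ZT1, and 116, 122 and 123 CPM and 108, 112, 106, 115 and 108 CPM at ZT13. At ZT13 the highest LPS-treated mouse lay just under the lowest PBS-treated mouse, and the difference of -0.13 ± 0.04 (SE) was called (limma, adjusted p = 0.0197), but it was 0.03 relative to neuronal markers and -0.02 with Tubb3 left out. Without ZT13 PBS replicate 2 or 3 that call was lost, at an adjusted p of up to 0.0822 by limma. Grm8 was called at neither time.

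GABA-A α subunits shape the response to GABA and to benzodiazepines. Gabra2, found at the axon initial segment, read 36.5, 37.4 and 35.4 CPM with PBS and 26.6, 20.4, 28.7, 31.7 and 31.5 CPM with LPS at ZT1. The ZT13 mice had 31.4, 27.1 and 32.3 CPM with PBS and 26.0, 24.2, 21.1, 27.3 and 28.3 CPM with LPS. All LPS-treated mice were lower at ZT1, the second by far, and at ZT13 the groups overlapped. The difference was -0.40 ± 0.12 (SE) (limma, adjusted p = 0.0427) and -0.25 ± 0.09 (SE) (limma, adjusted p = 0.0506), and with single mice left out the ZT1 call held in 3 of 8 fits. Relative to neuronal markers that call was lost at -0.26 (limma, adjusted p = 0.0856). Gabra4, a partner of the δ subunit, was called at ZT13 with -0.16 ± 0.04 (SE) (limma, adjusted p = 0.0179), from 65.0 to 72.7 CPM with PBS to 59.9 to 64.1 CPM with LPS. That call was lost without ZT13 PBS replicate 1 or 2, at an adjusted p of up to 0.102 by limma, and the difference was -0.00070 relative to neuronal markers and -0.05 with Tubb3 left out. Gabra3 and Gabra5 were not called, with differences between -0.06 and 0.10.

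The β and γ subunits complete the synaptic receptor. Gabrb1 and Gabrb2 were called lower at ZT13 and not at ZT1. Gabrb2 read 154, 149.9 and 159.9 CPM with PBS and 141, 138, 151, 155 and 153 CPM with LPS at ZT1. With injection at ZT13 the values were 166, 162 and 159 CPM after PBS and 147, 144, 143, 144 and 148 CPM after LPS. The ZT1 groups overlapped and the ZT13 groups did not, with -0.07 ± 0.05 (SE) (limma, adjusted p = 0.384) and -0.16 ± 0.03 (SE) (limma, adjusted p = 0.00187), the latter -0.0041 relative to neuronal markers and -0.05 with Tubb3 left out. Gabrb1 differed by -0.19 ± 0.05 (SE) at ZT13 (limma, adjusted p = 0.0058), from 180.4 to 189.8 CPM with PBS to 154 to 177 CPM with LPS, and by -0.04 relative to neuronal markers (limma, adjusted p = 0.554). Gabrg1 and Gabrg3 were called at neither time, with differences of -0.09 and -0.12 at ZT1 and of -0.13 and -0.03 at ZT13.

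The δ subunit gene Gabrd, which carries the tonic current outside synapses (chr4:155384980-155398112, minus strand), read 49.9, 41.1 and 45.6 CPM with PBS and 32.1, 31.7, 41.2, 37.8 and 40.7 CPM with LPS at ZT1. At ZT13 it read 44.5, 42.0 and 42.9 CPM with PBS and 33.8, 32.3, 31.6, 29.5 and 36.0 CPM with LPS. A single LPS-treated mouse at ZT1 reached the lowest PBS-treated mouse, and at ZT13 none did. The difference was -0.31 ± 0.10 (SE) (limma, adjusted p = 0.0522) and -0.40 ± 0.06 (SE) (limma, adjusted p = 0.000206), and relative to neuronal markers the latter was -0.24 (limma, adjusted p = 0.00719). Gabrr2, a ρ subunit best known from retina, was low and passed the level filter mainly through LPS-treated mice. Among PBS-treated mice only ZT13 replicate 2 reached 1 CPM, so a higher level with LPS is not independent of the filter. Gabrr2 read 0.493, 0.346 and 0.758 CPM with PBS and 2.33, 2.46, 1.37, 1.12 and 1.31 CPM with LPS at ZT1. At ZT13 the values were 0.721, 1.34 and 0.986 CPM with PBS and 1.42, 1.55, 1.72, 0.947 and 1.16 CPM with LPS. At ZT1 every LPS-treated mouse was above every PBS-treated mouse and at ZT13 the groups overlapped. The difference was 1.08 ± 0.24 (SE) (limma, adjusted p = 0.00967) and 0.30 ± 0.19 (SE) (limma, adjusted p = 0.276), and without ZT1 PBS replicate 2 the first was no longer called (limma, adjusted p = 0.0523).

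Many GABA-A genes lie in clusters, and the calls can be read by cluster. On chromosome 5 Gabra4 and Gabrb1 were called at ZT13, Gabra2 at ZT1 and Gabrg1 at neither. Gabra4 and Gabrb1 start on opposite strands and share 46 exon bases, so a few reads cannot be assigned.

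The GABA-B receptor needs Gabbr1, which binds GABA, and Gabbr2, which reaches the G protein. Gabbr2 had the smallest adjusted p of the 40 genes at both times (chr4:46662305-46991873, minus strand). It read 528, 529.6 and 517 CPM with PBS and 382, 439, 404, 427 and 445 CPM with LPS at ZT1. The ZT13 mice had 507, 507 and 535 CPM with PBS and 399, 400.2, 387, 369.6 and 409.9 CPM with LPS. The groups were far apart, and the mean fell by 20.1% at ZT1 and by 23.9% at ZT13. The difference was -0.33 ± 0.05 (SE) (limma, adjusted p = 0.0011) and -0.39 ± 0.04 (SE) (limma, adjusted p = 2.67e-06). Set against neuronal markers it was -0.19 (limma, adjusted p = 0.0156) and -0.24 (limma, adjusted p = 0.000204).

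Gabbr1 read 640.2, 628 and 632 CPM with PBS and 581, 603, 614, 597 and 615 CPM with LPS at ZT1. With injection at ZT13 the values were 627, 637 and 637 CPM after PBS and 619.8, 613, 582, 592 and 609 CPM after LPS. The LPS-treated mice were all slightly below, and the difference of -0.07 ± 0.03 (SE) (limma, adjusted p = 0.14) and -0.07 ± 0.03 (SE) (limma, adjusted p = 0.0968) was called at neither time. Its sign turned at both times relative to neuronal markers, to 0.06 (limma, adjusted p = 0.164) and 0.08 (limma, adjusted p = 0.0449), and with Tubb3 left out it was 0.03 and 0.04 (limma, adjusted p = 0.581 and 0.314).

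A ratio of subunits within a mouse does not depend on the scaling of its library, and shows unequal change rather than which gene moved. Grin2a to Grin2b was 0.386, 0.366 and 0.383 in the ZT1 PBS mice and 0.437, 0.436, 0.455, 0.438 and 0.414 in the ZT1 LPS mice. At ZT13 it was 0.380, 0.407 and 0.384 with PBS and 0.445, 0.449, 0.462, 0.444 and 0.438 with LPS. Each LPS-treated mouse had a higher ratio than each PBS-treated mouse of either time. Gabbr1 to Gabbr2 was 1.21, 1.19 and 1.22 with PBS and 1.52, 1.37, 1.52, 1.40 and 1.38 with LPS at ZT1, and 1.24, 1.26 and 1.19 and 1.55, 1.53, 1.5, 1.60 and 1.48 at ZT13, again without overlap. Gria1 to Gria2 had a mean of 0.684 ± 0.0325 (SD, n = 3) with PBS and 0.758 ± 0.0479 (SD, n = 5) with LPS at ZT1, where the groups overlapped, and 0.661 ± 0.0238 (SD, n = 3) and 0.778 ± 0.0149 (SD, n = 5) at ZT13, where they did not. These ratios were chosen with the single genes known and are given as a description.

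**Figure D4:**
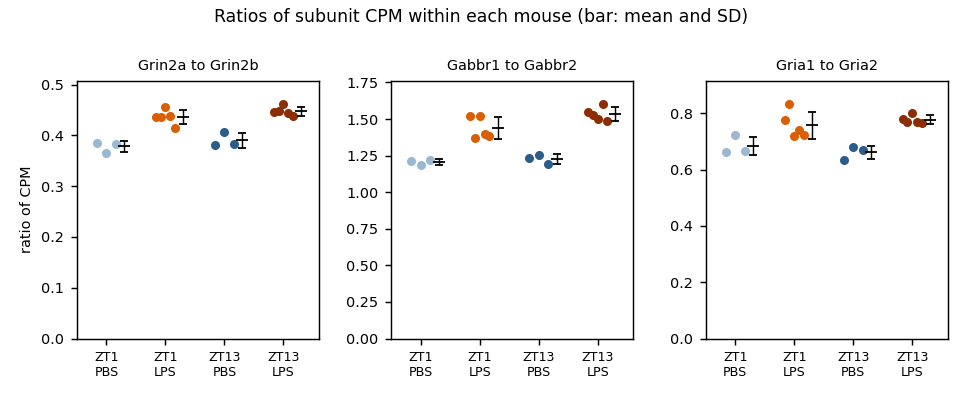
Ratio of CPM of pairs of subunit genes within each mouse, with the mean and SD of each group as a bar and axes that start at 0. The LPS-treated mice lie above the PBS-treated mice for Grin2a to Grin2b (means 0.436 against 0.378 at ZT1) and for Gabbr1 to Gabbr2 (1.44 against 1.21 at ZT1), and the groups overlap at ZT1 for Gria1 to Gria2.

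Whether the response depended on the time of injection was tested as the difference of both LPS responses over all 16 mice. Tissue was taken at the same time of day as the injections. The time of injection and the time of sampling therefore cannot be told apart, here or between ZT13 and ZT1. None of the 40 genes passed the threshold with limma, 6 had an unadjusted p under 0.05, against 9.25% of all genes, and the smallest adjusted p was 0.284, that of Gria3. Over all genes 0.159% passed the adjusted threshold. Among the 6 were Gabra4 with -0.14 ± 0.06 (SE), Gria3 with -0.18 ± 0.06 (SE), Grm2 with -0.14 ± 0.07 (SE) and Gabrr2 with -0.78 ± 0.31 (SE), negative where the LPS difference was lower at ZT13. The value of Gabrr2 is not independent of the level filter, which it passed mainly through LPS-treated mice. For the genes called at both times the interval of that difference was -0.09 to 0.16 for Gria1, -0.17 to 0.05 for Gria4, -0.13 to 0.10 for Grin2b and -0.20 to 0.07 for Gabbr2. A larger count of calls at ZT13 does not show a different response of any 1 of these genes.

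Between ZT13 and ZT1 no receptor gene was called among PBS-treated mice or among LPS-treated mice. With PBS 8 of the 40 had an unadjusted p under 0.05 by limma, against 13.5% of all genes, with a smallest adjusted p of 0.139 for Gabra2, and 0.52% of all genes were called. With LPS 1 of the 40 did, against 10.6% of all genes, and 0.0212% of all genes, 4 in number, were called. That small count was unstable, with 317 genes higher and 28 lower without ZT1 LPS replicate 1, 203 and 22 with sample weights and 114 and 8 in a single fit of all mice, but no receptor gene was among them. These comparisons share their mice with those of LPS against PBS. In PBS-treated mice Gabra2 differed by -0.27 ± 0.07 (SE) at ZT13 against ZT1, Gabra4 by 0.15 ± 0.05 (SE), Gria3 0.11 ± 0.03 (SE) and Grm2 0.17 ± 0.05 (SE), and the mice of these genes did not overlap between times. In all 5 of the 40 genes stood wholly higher and 3 wholly lower at ZT13, near the 9.52% and 9.21% of all genes that did.

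The proteins that scaffold and traffic these receptors are described from lists chosen by function. Of 38 scaffold and auxiliary genes of glutamate receptors 21 were called lower and 1 higher at ZT1, and 22 lower and 1 higher at ZT13, with a median of -0.20 and -0.13. Relative to neuronal markers the counts were 8 lower and 5 higher at ZT1 and 8 lower and 6 higher at ZT13. The medians were then -0.06 and 0.03. Of all genes 1.71% were called lower and 32.0% higher on that scale at ZT1, and 2.86% and 46.0% at ZT13. With Tubb3 left out the list had 11 lower and 2 higher, and 14 lower and 4 higher. The shares of all genes were then 2.16% and 22.8%, and 4.05% and 36.9%. Cacng4, a transmembrane AMPA regulator, differed by -0.59 and -0.62 (limma, adjusted p = 0.0052 and 1.20e-05). Shank1, a postsynaptic density scaffold, differed by -0.40 and -0.45, and Homer1, which ties group I receptors to calcium stores, by -0.42 and -0.37. Dlg4, which encodes the scaffold PSD-95, was called at ZT13 with -0.22 and not at ZT1 with -0.12. Against neuronal markers Cacng4 and Shank1 stayed called at both times, and Homer1 was not called at ZT13 (limma, adjusted p = 0.0861). Dlg4 then stood at 0.01 at ZT1 and -0.07 at ZT13, called at neither time (limma, adjusted p = 0.827 and 0.136). The gene called higher was Camk2a at ZT1 (0.11) and Homer3 at ZT13 (0.49). Of 20 scaffold and auxiliary genes of GABA receptors 3 were called lower at ZT1, and 4 lower and 1 higher at ZT13, with a median of -0.01 and -0.04. Relative to neuronal markers 9 were called higher and 1 lower at ZT1, and 10 higher and 2 lower at ZT13, where 32.0% and 46.0% of all genes were called higher on that scale. With Tubb3 left out it was 5 higher and 1 lower, and 6 higher and 2 lower. Insyn1, an inhibitory synapse protein, differed by -0.36 and -0.28, Kctd16, an auxiliary subunit of the GABA-B receptor, by -0.21 and -0.31, and Gphn, which encodes gephyrin, was not called.

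Of 14 genes that make or move glutamate 2 were called higher and 3 lower at ZT1, and 2 higher and 7 lower at ZT13. Slc1a3, the glial glutamate transporter GLAST, was higher by 0.38 and 0.48, and Slc38a2, a glutamine carrier, by 0.39 and 0.30. Slc17a7, the vesicular glutamate transporter of most cortical excitatory neurons, differed by -0.18 at ZT13. Against neuronal markers its ZT13 difference was -0.03 and not called (limma, adjusted p = 0.447). Relative to neuronal markers the list had 3 genes higher and 0 lower at each time. Of all genes 32.0% were called higher and 1.71% lower on that scale at ZT1, and 46.0% and 2.86% at ZT13. With Tubb3 left out the shares at ZT13 were 36.9% and 4.05%. Of 9 genes that make or move GABA 2 were called lower at ZT1, and 4 lower and 1 higher at ZT13, against 1 higher and 0 lower, and 3 higher and 1 lower, relative to neuronal markers, the latter 1 higher and 4 lower with Tubb3 left out. Slc32a1, the vesicular GABA transporter, differed by -0.21 and -0.29, and Gad1 and Gad2, which synthesize GABA, were called at neither time. Against neuronal markers Slc32a1 stood at -0.08 and -0.13, called at neither time (limma, adjusted p = 0.313 and 0.0877).

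Markers of cell types moved in the same comparisons. Of 12 neuronal markers 3 were called lower at ZT1 and 9 at ZT13, and none higher. Their summed level was 7566 to 7769 CPM with PBS and 6989 to 7352 CPM with LPS at ZT1, and 7625 to 7905 CPM and 6884 to 7194 CPM at ZT13. Tubb3 differed most, by -0.55 and -0.65, whereas Rbfox3 was not called. Of 10 excitatory markers 1 was called higher and 1 lower at ZT1, and 4 lower at ZT13. Of 10 inhibitory markers 1 was called higher and 2 lower at ZT1, and 1 higher and 3 lower at ZT13, with Sst, the gene of somatostatin, at -0.43 and -0.53. Their summed level was 816 to 875 CPM with PBS and 735 to 822 CPM with LPS at ZT1, and 841 to 862 CPM and 751 to 805 CPM at ZT13. Of 12 microglial markers 11 were called higher and 1 lower at each time, with summed levels of 248 to 272 CPM with PBS and 409 to 663 CPM with LPS at ZT1 and of 252 to 264 CPM and 599 to 645 CPM at ZT13. Of 10 oligodendrocyte markers 1 was called higher and 3 lower at ZT1, and 2 higher and 6 lower at ZT13. Of 8 markers of their precursors 3 were called higher at ZT1, and 2 higher and 1 lower at ZT13. Of 10 endothelial markers 7 were called higher and 1 lower at ZT1, and 9 higher at ZT13. Of 8 markers of thalamus, striatum and hippocampus 1 was called higher and 1 lower at ZT1, and 2 higher and 1 lower at ZT13, and of 5 erythrocyte markers tested none was called. No gene of these lists was at 0 in all mice of any group. The part of glial and vascular transcripts in the receptor results was not tested.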

How the data were processed

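Total RNA from mouse cortex was depleted of ribosomal RNA and sequenced, and the authors deposited CPM per gene for each mouse. The submitters' processing notes name bcl2fastq, DRAGEN 4.0.3-8 and GRCm38, and the settings and strand of counting are not given in the sources used here. Of 55774 lines 287 were identical repeats and were dropped. Read counts were not recovered, since 80.9% to 82.5% of low values were whole multiples of a read at a tolerance of 0.01 read, so no count test was run. log2(CPM + 0.5) was tested with limma 3.58.1 (R 4.3.3, variance trend), on the mice of the groups compared, and the interaction on all 16. Genes had to reach 1 CPM in at least 3 mice, and p-values were adjusted over all 18859 genes by Benjamini-Hochberg. The p-values measure the spread between mice as labelled. Mice were grouped by title, and values are given in the order of replicate numbers. Values in every mouse are given for 12 subunits chosen by role and for the 12 called genes of largest difference, except for a few members that are not reported here. Membership followed gene symbols alone, but the families, lists and tests were chosen with earlier results of these data known. Gene positions and exon lengths came from GENCODE M21 on GRCm38, and promoter windows from RefSeq on GRCm38.p6, which had an entry for 32 of the 47 genes. Alternatives covered the pseudocount, level filter, scaling, GC and length, variance trend, sample weights, the replicate block, single mice left out and the treatment field. The fit was tested on simulated data. Python 3.11.15, pandas 2.3.3 and matplotlib 3.10.9 were used.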

Additional observations from a re-analysis of the deposited data

Results flagged for a closer look

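In 2 of the 80 groups of 5 mice tested, 1 mouse stood apart from the others by Dixon's criterion, where chance alone gives about 1 in 20. Grin2c, an NMDA subunit gene, read 55.8 CPM in ZT13 LPS replicate 5 and 31.5 to 34.8 CPM in the other 4 mice. Grid1, a delta receptor gene, read 84.1 CPM in ZT13 LPS replicate 4 and 88.0 to 88.4 CPM in the other 4 mice.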

How the results depend on the processing

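The pseudocount of 0.1 or 1 and a level filter of 5 CPM left every count of called receptor genes within 1.5 times its value. The 2 genes called higher at ZT1 became 0 when all genes above 0 were tested and 8 relative to neuronal markers. They became 4 with quantile normalization, sample weights or a single fit of all mice, and 1 with the GC and length trend removed. Over all genes tested the 2089 higher at ZT1 became 1167 (of 38565), 6043, 1493, 2707, 2709 and 1383 in that order. The 10 lower at ZT1 became 4 with all genes tested (Gria4, Grin2b, Grin3a and Gabbr2) and 3 relative to neuronal markers. They became 17 with GC and length removed and 6 without the variance trend. The 972 lower over all genes became 438 (of 38565), 323, 2257 and 544 in that order. At ZT13 the 2 higher became 1 with median-of-ratios factors, GC and length removed, no variance trend or a single fit, and 8 relative to neuronal markers. Over all genes the 3629 higher became 2870, 2222, 3295, 3405 and 8682 in that order. The 18 lower became 5 relative to neuronal markers and 28 with GC and length removed, where the 1772 over all genes became 540 and 4983. Grouping by the treatment field gave 0 calls in either direction at either time. Among the genes whose values are given singly and that were called on at least 1 of both scales, the sign turned relative to neuronal markers for Grm5 at ZT1 (0.00632) and for Grm7 (0.0258), Gabbr1 (0.0839) and Grid1 (0.0148) at ZT13. With Tubb3 left out of these markers, chosen after seeing the data, 5 were called higher at each time and 7 and 11 lower, and of these genes Gabbr1 alone kept the turned sign. In each case the cause was not tested.

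Leaving out 1 mouse at a time gave 1 to 3 higher and 5 to 15 lower at ZT1, and 2 higher and 15 to 20 lower at ZT13. Over all genes it gave 1297 to 2464 higher and 468 to 1294 lower at ZT1. At ZT13 the ranges over all genes were 2947 to 3678 higher and 1243 to 1869 lower. The count lower at ZT1 was 5, 6 and 6 without ZT1 PBS replicate 1, 2 and 3, where that over all genes fell from 972 to 468, 515 and 473. The count higher was 1 without ZT1 PBS replicate 2, where that over all genes fell from 2089 to 1355. Most mice of different groups that share a replicate number did not deviate together (20 pairs, r from -0.199 to 0.328, 3 over 0.1). The highest r was that of replicate 5 of ZT1 LPS and ZT13 LPS. The numbers were not taken as pairs. A replicate block gave 3 higher and 11 lower at ZT1 and 2 higher and 19 lower at ZT13, without Grin2d and Grm5 at ZT1 and Grid1 at ZT13. Over all genes the block gave 1688 higher and 949 lower at ZT1, and 3173 and 1507 at ZT13. In the time-of-day comparisons and the interaction 0 receptor genes were called under each alternative. With 3 PBS-treated mice per time, small differences could be missed, at a median SE of the 40 genes of 0.054 at ZT1 and 0.045 at ZT13. Reads assigned across overlapping exons remain uncertain.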

Other observations

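Transcripts that rise within minutes of neuronal firing stood lower after LPS. Of 7 such immediate early genes 5 were called lower at each time, with a median of -0.58 at ZT1 and -0.80 at ZT13, and none was called higher. Fos, a transcription factor gene, averaged 76.7 CPM with PBS and 42.7 CPM with LPS at ZT1, and 65.4 CPM and 27.9 CPM at ZT13, a difference of -0.86 ± 0.16 (SE) (limma, adjusted p = 0.00359) and -1.12 ± 0.27 (SE) (limma, adjusted p = 0.00591). Npas4, which shapes inhibitory synapses with activity, differed by -0.91 ± 0.18 (SE) and -0.99 ± 0.17 (SE). Arc, which promotes removal of AMPA receptors from the membrane, differed by -0.83 ± 0.19 (SE) and -1.10 ± 0.30 (SE). Fosb and Junb were called at neither time. The PBS-treated mice at ZT13 spread widely, with a summed level of the 7 genes from 794 to 1819 CPM, against 551 to 970 CPM with LPS. When set against neuronal markers, 4 of the 7 were called lower at ZT1 and 3 at ZT13, against 1.71% and 2.86% of all genes.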
